A study of Canis lupus familiaris with 29 samples.

Results

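Pheochromocytomas and paragangliomas (PPGLs) are tumors of chromaffin cells, the catecholamine-making cells of the adrenal medulla and of related ganglia. RNA of 19 such tumors of client-owned dogs was compared, 7 that the authors placed in PPGL group 1 and 12 that they placed in PPGL group 2, out of a series of 29 samples. The tumors came from several clinics and were taken at surgery or after euthanasia, and all were pheochromocytomas apart from a single paraganglioma. The other 10 samples are normal adrenal medullas (NAMs) of healthy research dogs, used here as a reference level, in the scaling and in a single alternative fit. The authors drew both tumor groups from a principal component analysis of these same libraries, so the p-values below describe the split and do not test whether it exists. Each p-value sets the difference between group means against the spread between tumors.

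The study asked which genes set canine PPGLs apart from the normal medulla and whether the tumors fall into transcriptional groups. The questions taken up here are which genes and which functions, beyond the steroid enzymes, differ between both tumor groups, in how many tumors each difference is seen, and where the NAMs lie.

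Chromaffin cells descend from the neural crest. They turn tyrosine into dopamine, noradrenaline and adrenaline through TH, DDC, DBH and PNMT, pump the amines into granules through SLC18A1 and SLC18A2, and release them with granins when nerves depolarize them. The transcription factors PHOX2A, GATA3 and HAND2 hold this identity in the whole sympathoadrenal lineage. In the adrenal gland these cells lie inside the cortex, whose cells express NR5A1 and steroid enzymes, and pieces of medulla often carry some cortex. Human PPGLs are known to differ in catecholamine type, in differentiation and in growth rate.

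Depth came first, since weak genes are seen only where depth allows. The libraries held from 18493540 over a median of 20825468 to 31919833 counts in group 1 and from 18208718 over 22051743 to 24569667 in group 2. Both ranges overlapped, and the means did not differ beyond the spread between tumors (2-sided exact permutation test, p = 0.490). The floor was set at 3 counts in a library, which is 0.0940 to 0.165 CPM in the tumors, where CPM are counts scaled to a common library size. Where every tumor of a group lies at or under the floor, the fold is given as a lower bound, and such floors and bounds cover counting error only.

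Some libraries stood apart and are named before any result. Group 1 replicate 7 had a mean Spearman correlation of 0.782 with the other tumors, against a median of 0.881 over all 19, and group 2 replicate 11 had 0.825. Replicate 7 of group 1 was also the tumor with the lowest level of the granin CHGB, at 27.0 CPM. In group 1 replicates 3 and 5 the level of TH was 10.7 and 2.14 CPM and of DDC 0.284 and 0.356 CPM. These tumors still held 2549 and 2156 CPM of DBH, 906 and 584 CPM of PHOX2A and 13033 and 6798 CPM of CHGB. Some chromaffin markers were thus nearly absent from them, while others were high.

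The chromaffin markers as a whole were present in both groups. Of 14 listed markers 13 were found by name (CHGA was not), and HAND2 was the only one called different. Their summed level was 8737, 34487 and 118817 CPM (lowest, median and highest) in group 1 and 20945, 49609 and 102914 CPM in group 2, with CHGB the most abundant in both. PNMT, which makes adrenaline, had 11.5, 506 and 5819 CPM in group 1 and 62.4, 168 and 889 CPM in group 2. Group 1 spanned the whole range of group 2 and beyond it at both ends, and the difference was not called, at a log2 fold change of 1.96 (adjusted p 0.211). GATA3 had 27.2, 253 and 619 CPM in group 1 and 0.375, 26.8 and 118 CPM in group 2. Although 5 of 7 group 1 tumors lay above every group 2 tumor, it missed the threshold at 2.49 (adjusted p 0.115). Leaving out a single tumor gave 0.61 for PNMT (not called) without group 1 replicate 2, 2.69 for GATA3 (then called) without group 1 replicate 5, and -2.45 for SCG2 (then called) without group 1 replicate 6, where SCG2 is a granin at -1.67 over all tumors. Without group 1 replicates 3 and 5 together, an omission chosen after seeing the data, PNMT was called at 2.43 (adjusted p 0.0917) and GATA3 at 2.90 (adjusted p 0.0850), and without these, group 1 replicate 7 and group 2 replicate 11 PNMT was called at 2.65 (adjusted p 0.0687) and GATA3 was not (2.69, adjusted p 0.167). HAND2 had 143, 395 and 549 CPM in group 1 and 95.1, 156 and 406 CPM in group 2, and 3 of 7 group 1 tumors lay above every group 2 tumor. Its log2 fold change was 1.02 (adjusted p 0.0673), and it lost its call in 3 omissions of a single tumor, with 0.95 for HAND2 (no longer called) without group 1 replicate 3, 0.95 for HAND2 (no longer called) without group 1 replicate 4, and 0.91 for HAND2 (no longer called) without group 1 replicate 7. In both joint omissions it lost its call as well, at 0.92 (adjusted p 0.145) and 0.64 (adjusted p 0.401).

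Cortex is the other tissue that these samples can hold. Of 11 cortical markers 10 were found (CYP11B1 was not), and 9 of them were called lower in group 1, all but STAR. Their summed level was 21.5, 203 and 1129 CPM in group 1, 209, 3611 and 33479.6 CPM in group 2 and 13992 to 66047 CPM in NAMs. The most abundant marker was STAR in group 1 and CYP17A1 in group 2, and CYP11A1, HSD3B2, CYP11B2, MC2R, MRAP and NR0B1 were at 0 in at least 1 tumor. The cortical score, the mean log2 CPM of these markers, ran from -3.32 to 3.18 in group 1 and from 2.35 to 9.63 in group 2, so both groups overlapped only at group 1 replicate 6 and group 2 replicate 7. Every result below runs beside this difference in cortical markers, whose part in the other results was not tested. The paper states that most group 1 dogs had a tumor thrombus. It proposes that sampling the thrombus in place of the adrenal mass might have brought in fewer cortical cells, which was not tested here. In bulk RNA, fewer cells of a type and less RNA per cell cannot be told apart.

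Markers of other cell types came next. None of the endothelial, fibroblast, T or NK cell, B cell, myeloid and Schwann cell markers was called, but these are short panels, and longer lists of such cells held calls. Of 68 matrix and fibroblast genes 13 were lower and 1 higher (19.1% and 1.47%, against 3.03% and 3.91% of all genes), and of 18 genes of smooth muscle and pericytes 4 were lower and 0 higher (22.2% and 0%). Of 28 endothelial genes 1 (ANGPT2) was higher and 0 lower (3.57% and 0%), of 17 Schwann cell genes 2 (NGFR and GFRA3) were higher and 1 lower (11.8% and 5.88%), and of 27 myeloid genes 0 were higher and 2 lower (0% and 7.41%). In omissions of a single tumor the lower count was 2 to 4 for smooth muscle and pericytes and 0 to 3 for myeloid genes (0 in 8 of them), and the higher count was 0 to 2 for endothelial and 1 to 2 for Schwann cell genes. Among 6 smooth muscle and pericyte markers, 2 (DES and CNN1) were called lower. The summed level of all 6 was 216, 1704 and 3938 CPM in group 1 and 623, 1617 and 4821 CPM in group 2. RGS5 was the most abundant of them in both groups, though not the larger part of the sum in every tumor. The 6 fibroblast markers summed to 153, 509 and 2367 CPM in group 1 and 407, 952 and 25225 CPM in group 2, with the highest value in group 2 replicate 11. Of 3 erythroid markers 1, ALAS2, which starts heme synthesis, was called lower, with 0.0334, 0.639 and 0.940 CPM in group 1 and 0.271, 2.06 and 44.6 CPM in group 2. 10 of 12 group 2 tumors lay above every group 1 tumor, at -3.45 (adjusted p 0.0571), and omissions gave -3.23 for ALAS2 (no longer called) without group 1 replicate 7, and -2.22 for ALAS2 (still called) without group 2 replicate 11. The liver marker TTR and the kidney markers UMOD and SLC34A1 lay at or under the floor in all tumors.

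Across the transcriptome 14666 genes had enough counts to be tested with edgeR. At an adjusted p (false discovery rate) below 0.1, 573 genes (3.91%) were called higher in group 1 and 445 (3.03%) lower. The study set the same limit on adjusted p for these groups, but with a Mann-Whitney U-test and a cutoff on the fold as well. It reported no gene at an adjusted p below 0.05, and 33 genes under both of its limits. All 33 were called here, 9 higher and 24 lower. Under both limits the exact Mann-Whitney U-test run here gave 17 higher and 109 lower genes. The calls here are thus far more than the study's, and the reason was not tested. The median log2 fold change over all genes tested was 0.03, which the scaling itself keeps near 0. Larger differences ran mostly the other way: 63 genes (0.430%) were higher by a log2 fold change over 3, and 163 (1.11%) were lower by a log2 fold change under -3. Complete separation was rarer still. In 6 genes (0.0409%) every group 1 tumor lay above every group 2 tumor, and in 22 genes (0.150%) every group 1 tumor lay below every group 2 tumor.

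The number of calls leaned on single tumors and on the cortical score. Without group 1 replicate 7 the calls fell to 214 higher and 255 lower, of which 195 and 230 were among the calls from all tumors. Without group 2 replicate 4 they were 359 and 315. Without group 1 replicates 3 and 5 together there were 605 higher and 464 lower calls, and without these, group 1 replicate 7 and group 2 replicate 11 there were 191 and 207. Both joint omissions were chosen after seeing the data. With the cortical score as a covariate 0 genes were called in either direction, and 137 of 573 higher genes and 44 of 429 lower genes outside the steroid list changed sign. No gene called from all tumors was called the opposite way in any of these omissions, and 116 higher and 212 lower genes were called in each of the 19 omissions of a single tumor.

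**Figure D1:**
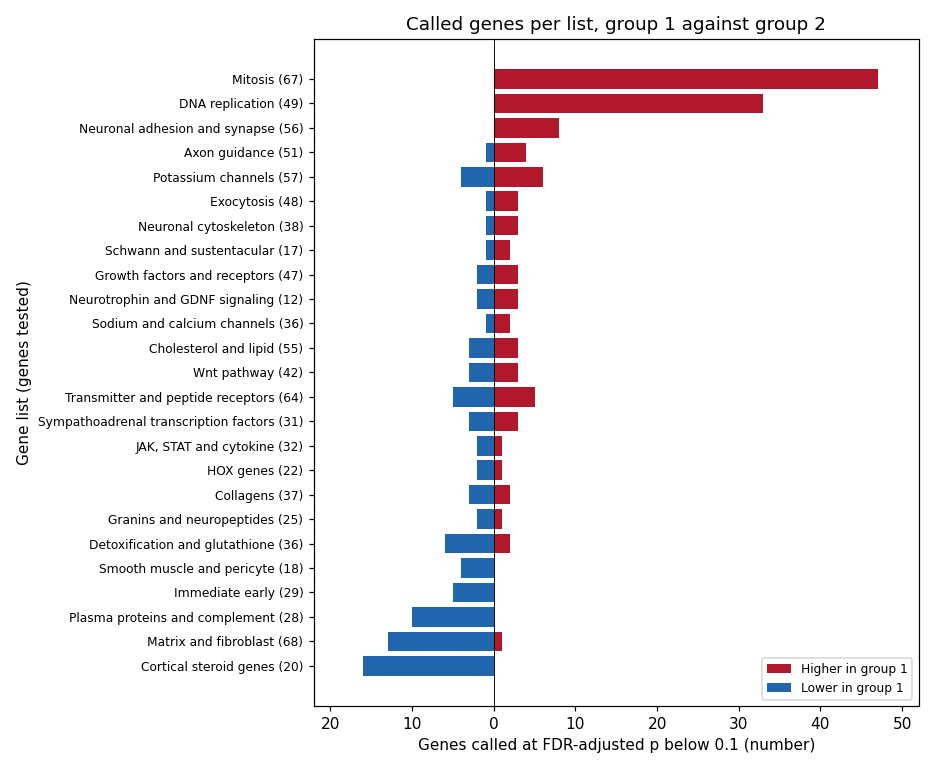
Number of genes called higher (right, red) or lower (left, blue) in group 1 than in group 2 for each gene list with at least 3 called genes, with the number of tested genes of the list in parentheses. Of the 67 mitosis genes 47 were called higher and 0 lower.

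Cell division gave the largest group of genes higher in group 1. Dividing cells first load and copy their DNA with the MCM helicase, GINS and polymerase alpha, then build a spindle with kinases such as AURKA and motors such as KIF4A. In PPGLs the share of dividing cells is usually low, and Ki-67, the product of MKI67, is counted by pathologists to measure it. Of 67 mitosis genes tested 47 were called higher and 0 lower (70.1% and 0%, against 3.91% and 3.03% of all genes), with a median log2 fold change of 1.68, and of 49 DNA replication genes 33 were higher and 0 lower (67.3% and 0%), with a median of 1.37. Over all genes the median was 0.03. With the cortical score as a covariate no gene of either list was called, and the medians were -0.25 for mitosis and 0.13 for replication, and score and group cannot be told apart. The mean log2 CPM of the mitosis list was 1.18, 3.40 and 5.76 in group 1, 1.13, 2.39 and 3.17 in group 2 and 0.20, 1.07 and 2.34 in NAMs. The groups overlapped: replicate 7 of group 1 was the highest of all tumors, and replicate 6 of group 1 was among the lowest. Without group 1 replicate 7 the calls dropped to 2 mitosis and 9 replication genes, and the medians to 0.84 and 0.71. Without group 2 replicate 4 the mitosis list had 31 calls.

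Among the named genes of DNA replication, 6 kept their calls in every omission of a single tumor. GINS4, a subunit of the GINS complex that starts the replication fork, had 13.4, 15.5 and 30.3 CPM in group 1 and 4.49, 7.54 and 10.9 CPM in group 2. Every group 1 tumor lay above every group 2 tumor, at a log2 fold change of 1.34 (adjusted p 0.00674). The NAM median of 3.84 CPM lay below both groups. MCM2, part of the helicase ring, had 22.8, 39.2 and 178 CPM in group 1 and 7.84, 15.9 and 22.9 CPM in group 2. 6 of 7 group 1 tumors lay above every group 2 tumor, at 1.93 (adjusted p 0.00567). POLA2, the accessory subunit of polymerase alpha, had 25.3, 43.8 and 100.4 CPM in group 1 and 9.10, 19.2 and 32.1 CPM in group 2. Above every group 2 tumor lay 6 of 7 group 1 tumors, at 1.37 (adjusted p 0.00745). The cyclin CCNE2, which drives entry into DNA synthesis, had 3.81, 11.0 and 31.0 CPM in group 1 and 1.76, 3.20 and 6.32 CPM in group 2. The groups overlapped, with 5 of 7 group 1 tumors above every group 2 tumor, at 1.76 (adjusted p 0.00946). The helicase gene MCM3 and RRM1, which makes deoxynucleotides, were higher by 1.37 for MCM3 (adjusted p 0.0143) and 0.72 for RRM1 (adjusted p 0.0164). No such omission moved these 6 genes by over 1.5 times in fold. Without the 4 tumors that stand apart MCM3 lost its call, at 0.96 (adjusted p 0.101), while the others of these 6 kept theirs. Other replication genes leaned on a single tumor. UHRF1, which couples replication to DNA methylation, CDC45 of the active helicase and the clamp PCNA were higher by 3.43 for UHRF1 (adjusted p 0.0168), 3.05 for CDC45 (adjusted p 0.0253) and 0.91 for PCNA (adjusted p 0.0454), with 1.08 for UHRF1, 1.42 for CDC45 and 0.58 for PCNA (no longer called) without group 1 replicate 7.

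Most genes of mitosis itself lost their calls without group 1 replicate 7. AURKA, a spindle kinase, had 3.08, 9.32 and 23.3 CPM in group 1 and 2.08, 3.08 and 5.58 CPM in group 2. In 5 of 7 group 1 tumors the level was above that of every group 2 tumor, at 1.62 (adjusted p 0.0160), and it kept its call in every omission of a single tumor, with 1.28 at its lowest. Without the 4 tumors that stand apart AURKA was no longer called, at 1.24 (adjusted p 0.105). TPX2, which activates AURKA on the spindle, had 10.6, 24.0 and 135 CPM in group 1 and 3.71, 8.71 and 16.8 CPM in group 2. The highest group 2 tumor was passed by 6 of 7 group 1 tumors, at 1.99 (adjusted p 0.0164). TOP2A, which untangles sister chromatids, had 7.26, 58.7 and 664 CPM in group 1 and 8.59, 23.1 and 64.7 CPM in group 2, and only 2 of 7 group 1 tumors lay above every group 2 tumor. Its log2 fold change was 2.24 (adjusted p 0.0454). Other members were higher by 2.23 for KIF4A (adjusted p 0.0262), 1.43 for FOXM1 (adjusted p 0.0463) and 3.20 for MYBL2 (adjusted p 0.0429). FOXM1 and MYBL2 are transcription factors that turn on mitotic genes. The omission of a tumor gave 0.87 for KIF4A, 0.84 for FOXM1, 0.42 for MYBL2 and 0.77 for TOP2A (no longer called) and 1.26 for TPX2 (still called) without group 1 replicate 7. MKI67 had 4.53, 24.8 and 288 CPM in group 1 and 10.5, 12.9 and 43.1 CPM in group 2. Group 1 overlapped with group 2, but 2 of its 7 tumors lay above all of group 2, and 1 lay below all of them. At 1.82 (adjusted p 0.0766) it was close to the threshold, and its call was lost in 8 omissions, with 0.43 for MKI67 (no longer called) without group 1 replicate 7, 1.77 for MKI67 (no longer called) without group 2 replicate 2, 1.79 for MKI67 (no longer called) without group 2 replicate 4, 1.77 for MKI67 (no longer called) without group 2 replicate 6, 1.79 for MKI67 (no longer called) without group 2 replicate 7, 1.78 for MKI67 (no longer called) without group 2 replicate 8, 1.77 for MKI67 (no longer called) without group 2 replicate 10, and 1.77 for MKI67 (no longer called) without group 2 replicate 12.

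**Figure D2:**
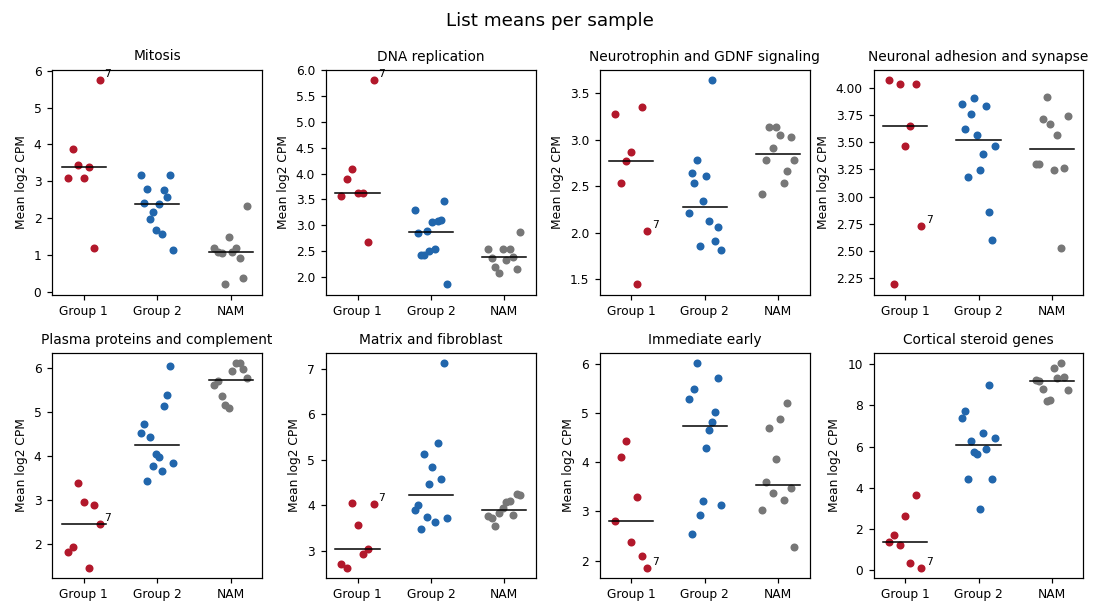
Mean log2 CPM of the genes of each list in every sample of group 1 (red), group 2 (blue) and NAM (gray), with the median of each group as a black line and group 1 replicate 7 marked by its number. For mitosis this tumor lies at 5.76, against medians of 3.40 in group 1 and 2.39 in group 2.

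Some genes of nerve cell contact were higher in group 1. Adhesion molecules of the immunoglobulin family, such as NCAM1 and NRCAM, hold neurites together and mark neuroendocrine cells. Of 56 adhesion and synapse genes tested 8 were called higher and 0 lower (14.3% and 0%, against 3.91% and 3.03% of all genes), although the list's median of 0.22 was near that of all genes. DESeq2 called 9 higher and 5 lower, at an unadjusted p under 0.05 there were 13 and 5, and up to 2 were lower in omissions of a single tumor. NRCAM had 126, 148 and 331 CPM in group 1 and 16.1, 51.3 and 99.3 CPM in group 2. No group 2 tumor reached the lowest group 1 tumor, at 1.74 (adjusted p 0.0169). NCAM1 had 74.6, 159 and 271 CPM in group 1 and 26.1, 55.8 and 105 CPM in group 2. 6 of 7 group 1 tumors lay above every group 2 tumor, at 1.71 (adjusted p 0.00549). Group 1 was near the NAM median here, 113 CPM for NRCAM and 152 CPM for NCAM1. BRINP1, a neural protein that slows cell division, had 5.54, 23.1 and 227 CPM in group 1 and 0, 1.99 and 12.0 CPM in group 2. Above every group 2 tumor lay 6 of 7 group 1 tumors, at 4.88 (adjusted p 0.00666). VSTM2L had 10.6, 63.2 and 193 CPM in group 1 and 1.01, 6.03 and 23.2 CPM in group 2. The groups overlapped, with 6 of 7 group 1 tumors above every group 2 tumor, at 3.31 (adjusted p 0.00567). The protocadherin PCDH17 had 14.3, 41.2 and 62.6 CPM in group 1 and 3.07, 6.87 and 15.4 CPM in group 2. In 6 of 7 group 1 tumors the level was above that of every group 2 tumor, at 2.27 (adjusted p 0.00491). The synaptic adhesion gene NLGN3, the adhesion gene DSCAML1 and the receptor phosphatase PTPRT, found at synapses, were higher by 2.41 for NLGN3 (adjusted p 0.0435), 3.41 for DSCAML1 (adjusted p 0.0464) and 3.97 for PTPRT (adjusted p 0.0229). The contactin CNTN4 had 0.353, 1.66 and 433 CPM in group 1 and 0.708, 1.46 and 6.99 CPM in group 2. The highest group 2 tumor was passed by 2 of 7 group 1 tumors, at 4.98 (adjusted p 0.0174). Omissions of a tumor gave 3.29 for PTPRT (still called) without group 1 replicate 1, 2.32 for CNTN4 (no longer called) without group 1 replicate 7, and 4.40 for DSCAML1 (still called) without group 2 replicate 6. Without the 4 tumors that stand apart NRCAM (1.53, adjusted p 0.111) and DSCAML1 (3.25, adjusted p 0.162) lost their calls. NLGN3 lost its call without group 1 replicates 3 and 5 (2.11, adjusted p 0.104). NCAM1, BRINP1, VSTM2L, PCDH17, PTPRT and CNTN4 kept theirs in both joint omissions.

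A few release and growth cone genes were higher in part of the group 1 tumors. RPH3A, a partner of RAB3A on secretory vesicles, had 0.398, 1.94 and 125 CPM in group 1 and 0, 0.140 and 0.562 CPM in group 2. Group 1 overlapped with group 2, but 6 of its 7 tumors lay above all of group 2, at 6.67 (adjusted p 0.00567), and most of the size of this fold came from a single tumor. SV2A, a glycoprotein of synaptic vesicles, had 60.4, 114 and 237 CPM in group 1 and 25.8, 48.2 and 96.7 CPM in group 2. 4 of 7 group 1 tumors lay above every group 2 tumor, at 1.11 (adjusted p 0.0262). Of 48 exocytosis genes 3 were higher and 1 lower (6.25% and 2.08%, against 3.91% and 3.03% of all genes). Of 38 neuronal cytoskeleton genes 3 were higher and 1 lower (7.89% and 2.63%, against 3.91% and 3.03% of all genes), with a median of 0.44 and 31 positive members. Immature neurons express the RNA-binding protein ELAVL2 and the microtubule partners DPYSL5 and DCX, and these were higher by 2.60 for ELAVL2 (adjusted p 0.0249), 5.04 for DPYSL5 (adjusted p 0.0262) and 3.78 for DCX (adjusted p 0.0562). Their levels were raised in few tumors, since for ELAVL2 and DCX 2 group 1 tumors each lay above every group 2 tumor. Among 51 axon guidance genes 4 were higher and 1 lower (7.84% and 1.96%, against 3.91% and 3.03% of all genes), and the lower count was 5 without group 1 replicate 1. The ephrin EFNB1 had 24.7, 51.2 and 96.4 CPM in group 1 and 12.5, 18.6 and 50.6 CPM in group 2. Above every group 2 tumor lay 4 of 7 group 1 tumors, at 1.28 (adjusted p 0.0197). The ephrin receptors EPHB2 and EPHB1 were higher by 2.89 for EPHB2 (adjusted p 0.0233) and 1.77 for EPHB1 (adjusted p 0.0434). SEMA3A, which repels growth cones, went the other way with 0, 0.1001 and 0.331 CPM in group 1 and 0.431, 1.06 and 7.30 CPM in group 2. Every group 1 tumor lay below every group 2 tumor, at -4.04 (adjusted p 0.0203). Single omissions gave 4.05 for RPH3A (still called) without group 1 replicate 2, 1.29 for EPHB1 (no longer called) without group 1 replicate 3, and 0.74 for ELAVL2, 1.87 for DPYSL5 and 1.75 for DCX (no longer called) and 2.19 for EPHB2 (still called) without group 1 replicate 7. SV2A (0.72) and EPHB1 (0.76) lost their calls without group 1 replicates 3 and 5. Without the 4 tumors that stand apart SV2A (0.52), EPHB1 (0.64), EPHB2 (0.68), ELAVL2 (0.83), DPYSL5 (0.59) and DCX (2.42) lost theirs. RPH3A, EFNB1 and SEMA3A kept their calls in both joint omissions.

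Some trophic receptor and lineage factor genes were called, in both directions. Neurotrophins and the GDNF family keep neurons of the sympathetic lineage alive, and ISL1 is a factor of sympathetic and sensory neurons. NGFR, which binds all neurotrophins, had 4.19, 35.9 and 645 CPM in group 1 and 4.66, 11.0 and 53.6 CPM in group 2. The groups overlapped, with 3 of 7 group 1 tumors above every group 2 tumor, at 3.29 (adjusted p 0.0169). GFRA3, the receptor of artemin, was higher by 3.33 (adjusted p 0.0473) through a single tumor at 513 CPM, against a group 1 median of 14.1 CPM. SORT1, which sorts neurotrophins and their receptors, had 20.1, 37.0 and 53.0 CPM in group 1 and 41.1, 66.6 and 122 CPM in group 2. Above every group 1 tumor lay 10 of 12 group 2 tumors, at -0.95 (adjusted p 0.0212). ISL1 had 6.10, 149 and 352 CPM in group 1 and 0, 0.832 and 38.4 CPM in group 2. In 6 of 7 group 1 tumors the level was above that of every group 2 tumor, at 5.01 (adjusted p 0.0247). In NAMs ISL1 ran from 18.9 to 60.2 CPM, nearer to group 1. The homeobox gene TLX2 was higher by 1.56 (adjusted p 0.0584). NEUROD4, a factor of neural progenitors, had 0, 0 and 0.653 CPM in group 1 and 0, 2.93 and 23.1 CPM in group 2, and 7 of 12 group 2 tumors lay above every group 1 tumor. It was lower by a log2 fold change of -6.19 (adjusted p 0.0463). TBX3, a T-box repressor, was called at -1.68 (adjusted p 0.0521), and its NAM median of 87.0 CPM lay above both groups. HOXB3 was called at -1.58 (adjusted p 0.0443). Without the 4 tumors that stand apart ISL1 (4.47, adjusted p 0.101), TLX2, NEUROD4, TBX3 and HOXB3 lost their calls. NGFR, GFRA3 and SORT1 kept theirs. A tumor left out gave 0.85 for GFRA3 (no longer called) without group 1 replicate 1, 2.49 for NGFR (still called) without group 1 replicate 2, 1.26 for TLX2 (no longer called) without group 1 replicate 7, and 6.13 for ISL1 (still called) without group 2 replicate 7. NEUROD4 was still called without group 1 replicate 1, but the other group 1 tumors lay at or under the floor, so no exact fold is given.

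A few ion channel genes were called, in both directions. Of 57 potassium channel genes 6 were called higher and 4 lower (10.5% and 7.02%, against 3.91% and 3.03% of all genes), with 47 not called and a median of -0.04. Of 36 sodium and calcium channel genes 2 were higher and 1 lower (5.56% and 2.78%, near the shares of all genes), with 33 not called. The count of higher potassium channels was 3 without group 1 replicate 2 or group 2 replicate 12 and 2 without group 1 replicate 7. DPP6, a subunit that speeds A-type potassium channels, had 4.07, 260.3 and 596 CPM in group 1 and 0.193, 3.51 and 36.6 CPM in group 2. The highest group 2 tumor was passed by 5 of 7 group 1 tumors, at 5.61 (adjusted p 0.00567). Both low group 1 tumors were replicates 6 and 7, at 12.4 and 4.07 CPM. KCNAB2, a beta subunit, had 8.93, 23.1 and 61.3 CPM in group 1 and 1.97, 5.71 and 19.0 CPM in group 2. Group 1 overlapped with group 2, but 4 of its 7 tumors lay above all of group 2, at 1.97 (adjusted p 0.0234). KCNK2, a background channel that holds the resting potential, had 0.0470, 0.174 and 1.34 CPM in group 1 and 2.69, 20.2 and 109.8 CPM in group 2. The groups did not overlap, with group 1 the lower, at -6.25 (adjusted p 0.00508), and NAMs lay higher still, at 39.9 to 196 CPM. KCNQ1 had 1.70, 4.45 and 6.72 CPM in group 1 and 4.11, 14.1 and 66.5 CPM in group 2. The groups shared a range, with 10 of 12 group 2 tumors above every group 1 tumor, at -2.34 (adjusted p 0.0252). The potassium channel KCNH1 and STAC2, which helps calcium channels reach the membrane, were called at 2.53 for KCNH1 (adjusted p 0.0268) and -3.55 for STAC2 (adjusted p 0.00909). With a tumor left out, values were -4.45 for STAC2 (still called) without group 1 replicate 1, -6.92 for KCNK2 (still called) without group 1 replicate 6, 1.59 for KCNH1 (no longer called) without group 1 replicate 7, and 6.50 for DPP6 (still called) without group 2 replicate 9.

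Receptors of amines and peptides set what can hold back or drive catecholamine release. The alpha2 adrenergic receptors and the kappa opioid receptor OPRK1 dampen release, and peptide receptors of the NPY and somatostatin families are known in chromaffin tumors. Of 64 receptor genes 5 were higher and 5 lower (7.81% and 7.81%, against 3.91% and 3.03% of all genes), and the higher count was 3 without group 1 replicate 1 or 6 or group 2 replicate 8. OPRK1 had 0, 5.28 and 19.1 CPM in group 1 and 0, 0.189 and 1.14 CPM in group 2. 5 of 7 group 1 tumors lay above every group 2 tumor, while replicates 5 and 7 had 0.208 and 0 CPM, and the log2 fold change was 4.65 (adjusted p 0.0164). Its ligand gene PDYN was high in a single tumor, with 0.133, 0.57 and 176 CPM in group 1 and 0.189, 0.698 and 2.39 CPM in group 2, and was called at 4.94 (adjusted p 0.0205). ADRA2C had 1.16, 1.66 and 72.6 CPM in group 1 and 0.168, 0.879 and 1.64 CPM in group 2. Above every group 2 tumor lay 4 of 7 group 1 tumors, at 4.00 (adjusted p 0.00652). The GABA receptor subunit GABRG3 was called at 2.65 (adjusted p 0.0529). SSTR1, a somatostatin receptor, had 0.0581, 0.376 and 6.40 CPM in group 1 and 2.87, 26.1 and 238 CPM in group 2. In 9 of 12 group 2 tumors the level was above that of every group 1 tumor, at -4.93 (adjusted p 0.0220). NPY1R had 0, 0.290 and 1.32 CPM in group 1 and 0.189, 5.48 and 53.2 CPM in group 2. The highest group 1 tumor was passed by 10 of 12 group 2 tumors, at -4.99 (adjusted p 0.0195). NPY5R, at 0 in every group 1 tumor, had 0, 0.718 and 5.75 CPM in group 2. It was at least 14.96-fold lower (from 12.3 without group 2 replicate 7 to 16.3 without group 2 replicate 3), and 9 of 12 group 2 tumors lay above every group 1 tumor. The nicotinic subunit CHRNA4 was called at -6.22 (adjusted p 0.0268). CPE, which trims peptide hormones in granules, had 136, 158 and 222 CPM in group 1 and 109, 426 and 666 CPM in group 2. Group 2 overlapped with group 1, but 10 of its 12 tumors lay above all of group 1, at -1.19 (adjusted p 0.0426). Leaving tumors out singly gave 2.14 for GABRG3 (no longer called) without group 1 replicate 1, 0.53 for PDYN (no longer called) and -5.66 for NPY1R (still called) without group 1 replicate 2, -6.62 for SSTR1 (still called) without group 1 replicate 4, -7.04 for CHRNA4 (still called) without group 1 replicate 6, 2.53 for ADRA2C (still called) without group 1 replicate 7, and -3.99 for SSTR1 (still called) without group 2 replicate 4.

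**Figure D3:**
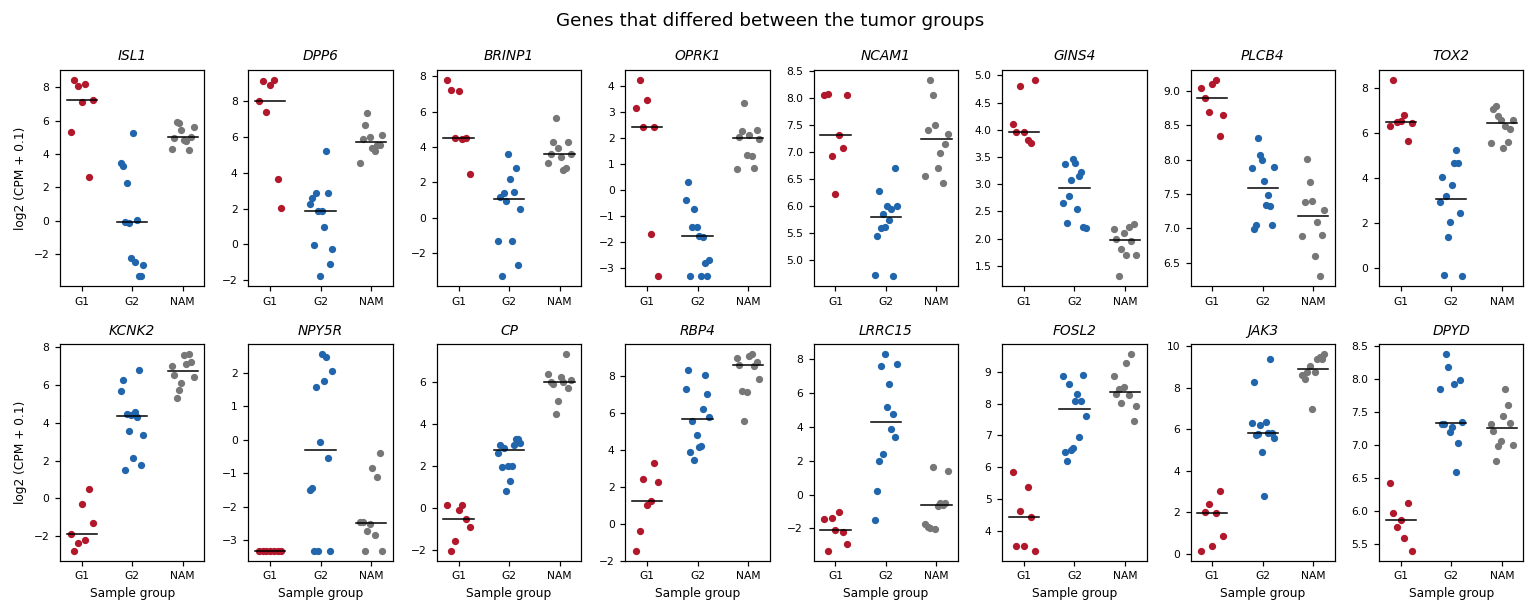
Log2 CPM, with 0.1 added, of 16 genes in every tumor of group 1 (red) and group 2 (blue) and in every NAM (gray), with the median of each group as a black line. Group 1 lay wholly above group 2 for PLCB4, and every group 1 tumor lay below every group 2 tumor for KCNK2.

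Some signaling genes and a few others were called, in both directions. Of 47 growth factor and receptor genes 3 were higher and 2 lower (6.38% and 4.26%, against 3.91% and 3.03% of all genes). The remaining 42 were not called, and the median was -0.57, or -0.10 without group 2 replicate 11. PLCB4, a phospholipase downstream of Gq-coupled receptors, had 325, 475 and 576 CPM in group 1 and 127, 193 and 320.2 CPM in group 2. Every group 1 tumor lay above every group 2 tumor, at 1.21 (adjusted p 0.00550). TOX2, a high mobility group protein, had 49.6, 90.2 and 331 CPM in group 1 and 0.674, 8.23 and 38.1 CPM in group 2. No group 2 tumor reached the lowest group 1 tumor, at 3.29 (adjusted p 0.00940), with NAMs at 40.6 to 148 CPM. ARHGEF18, an activator of RHOA, had 104, 123 and 172 CPM in group 1 and 61.6, 70.2 and 104 CPM in group 2. The groups overlapped, with 6 of 7 group 1 tumors above every group 2 tumor, at 0.89 (adjusted p 0.00396). The growth factor relative FGF13, which binds sodium channels, had 11.7, 29.2 and 92.3 CPM in group 1 and 3.06, 9.10 and 22.7 CPM in group 2. In 5 of 7 group 1 tumors the level was above that of every group 2 tumor, at 2.06 (adjusted p 0.0115). MET, the receptor of hepatocyte growth factor, had 9.04, 44.8 and 117 CPM in group 1 and 3.92, 7.82 and 55.8 CPM in group 2. The highest group 2 tumor was passed by 3 of 7 group 1 tumors, at 2.17 (adjusted p 0.0262), while NAMs had a median of 53.1 CPM. FGFR2 had 0.131, 0.426 and 8.46 CPM in group 1 and 4.39, 21.5 and 111 CPM in group 2. 10 of 12 group 2 tumors lay above every group 1 tumor, at -4.29 (adjusted p 0.0169). Of 42 Wnt genes 3 were higher and 3 lower (7.14% and 7.14%, against 3.91% and 3.03% of all genes), with 36 not called. The Wnt receptors FZD6 and FZD7 went opposite ways, 1.78 for FZD6 (adjusted p 0.0426) and -2.59 for FZD7 (adjusted p 0.0404), and RNF43, which removes such receptors from the membrane, was called at 3.48 (adjusted p 0.0588). ANGPT2, which loosens vessels, was called at 1.94 (adjusted p 0.0329). BTBD11 had 6.00, 22.9 and 90.6 CPM in group 1 and 0.883, 3.77 and 9.71 CPM in group 2. Group 1 overlapped with group 2, but 6 of its 7 tumors lay above all of group 2, at 2.77 (adjusted p 0.00652). The sulfotransferase CHST1, the factor FOXN4 and GLB1L2 were higher by 3.19 for CHST1 (adjusted p 0.00940), 2.88 for FOXN4 (adjusted p 0.0169) and 3.06 for GLB1L2 (adjusted p 0.0766), and GLB1L2 lost its call in 7 omissions. PTN, which the study itself takes up, had 8.44, 75.2 and 313 CPM in group 1 and 0.618, 3.56 and 14.03 CPM in group 2, at 4.52 (adjusted p 0.00328). Omitting a tumor gave 0.82 for RNF43 and 1.36 for ANGPT2 (no longer called) and -5.51 for FGFR2 and 3.84 for PTN (still called) without group 1 replicate 2, 1.25 for GLB1L2 (no longer called) without group 1 replicate 3, 1.59 for FZD6, 3.18 for GLB1L2 and 1.21 for FOXN4 (no longer called) without group 1 replicate 7, 3.01 for GLB1L2 (no longer called) without group 2 replicate 2, 3.07 for GLB1L2 (no longer called) without group 2 replicate 5, 2.95 for GLB1L2 (no longer called) without group 2 replicate 7, 4.34 for RNF43 (still called) without group 2 replicate 9, 2.99 for GLB1L2 (no longer called) without group 2 replicate 10, and 3.05 for GLB1L2 (no longer called) without group 2 replicate 12.

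Among the genes lower in group 1, the steroid genes formed a known block and are given only in brief. Of 20 cortical steroid genes tested 16 were lower and 0 higher (80.0% and 0%, against 3.03% and 3.91% of all genes). The median was -4.83, or -4.09 with the gene at the floor set to its bound. SOAT1, which stores cholesterol as esters, had 6.63, 18.5 and 21.0 CPM in group 1 and 27.0, 50.3 and 255 CPM in group 2. No group 1 tumor reached the lowest group 2 tumor, at -2.11 (adjusted p 0.0127). HSD11B2, which inactivates cortisol, had 1.13, 4.48 and 8.13 CPM in group 1 and 6.18, 129 and 1082 CPM in group 2. Above every group 1 tumor lay 11 of 12 group 2 tumors, at -5.71 (adjusted p 0.00652). MC2R, the receptor of corticotropin, had 0, 0 and 0.523 CPM in group 1 and 0.575, 6.35 and 45.0 CPM in group 2, and every group 1 tumor lay below every group 2 tumor. Most shifts of such genes came without group 1 replicate 6 or group 2 replicate 10, and among the named ones omissions gave -5.89 for NR5A1 (still called) without group 1 replicate 3, -7.83 for CYP21A2 (still called) without group 1 replicate 6, and -6.13 for CYP21A2 (still called) without group 2 replicate 10. MC2R was still called without group 1 replicate 6, but the other group 1 tumors lay under the floor, so no exact fold is given.

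Some enzymes of detoxification were lower as well, while most were not called, and few lipid genes were called. Glutathione transferases and flavin monooxygenases clear reactive products, and the adrenal cortex is known to be rich in both. Of 36 such genes 6 were lower and 2 higher (16.7% and 5.56%, against 3.03% and 3.91% of all genes), with a median of 0.03. MGST1 had 1.13, 3.72 and 13.3 CPM in group 1 and 7.56, 33.3 and 139.6 CPM in group 2. The groups shared a range, with 10 of 12 group 2 tumors above every group 1 tumor, at -3.27 (adjusted p 0.00924). GSTA2 had 0.167, 0.891 and 8.71 CPM in group 1 and 7.37, 80.5 and 570.3 CPM in group 2. In 11 of 12 group 2 tumors the level was above that of every group 1 tumor, at -5.71 (adjusted p 0.00911), though reads of its close paralogs cannot be told apart with certainty. FMO2, which has the same limit, was lower by -5.92 (adjusted p 0.0164). ALDH3A2, which oxidizes fatty aldehydes, was among the few higher, with 53.1, 68.5 and 350.4 CPM in group 1 and 37.2, 40.3 and 55.6 CPM in group 2. 6 of 7 group 1 tumors lay above every group 2 tumor, at 1.53 (adjusted p 0.00940). DPYD, the enzyme that breaks down pyrimidines and fluorouracil, had 42.1, 58.1 and 86.2 CPM in group 1 and 96.9, 162 and 333 CPM in group 2. Group 1 lay wholly below group 2, and its adjusted p of 0.00383 came with a log2 fold change of -1.71. ENPP2, which makes lysophosphatidic acid, had 1.80, 5.97 and 17.9 CPM in group 1 and 46.8, 266 and 1735 CPM in group 2. All tumors of group 1 lay below those of group 2, at -5.58 (adjusted p 0.00508). HAO2, a peroxisomal oxidase, had 0, 0.0435 and 0.871 CPM in group 1 and 0.287, 20.1 and 157 CPM in group 2. The highest group 1 tumor was passed by 11 of 12 group 2 tumors, at -7.67 (adjusted p 0.00567). Of 55 cholesterol and lipid genes 3 were higher and 3 lower (5.45% and 5.45%, against 3.91% and 3.03% of all genes), with 49 not called. Without the 4 tumors that stand apart 0 were higher and 2 lower. Of 38 genes of fatty acid and branched-chain amino acid oxidation 0 were higher and 2 lower (0% and 5.26%), and this lower count was 1 to 3 in omissions of a single tumor. The lipid genes ACSBG1 and MLXIPL, the fatty acid enzyme HADH and the sphingomyelinase ENPP7 were lower by -5.06 for ACSBG1 (adjusted p 0.0257), -4.37 for MLXIPL (adjusted p 0.0169), -1.05 for HADH (adjusted p 0.0408) and -5.38 for ENPP7 (adjusted p 0.00940), and NSDHL, of cholesterol synthesis, was higher by 0.65 (adjusted p 0.0420). HPN, a membrane protease, had 0.0435, 0.133 and 0.57 CPM in group 1 and 0.661, 2.22 and 7.95 CPM in group 2. Every group 1 tumor lay below every group 2 tumor, at -3.79 (adjusted p 0.00567). Median NAM levels of ENPP2, HAO2, MGST1 and GSTA2 lay above those of both tumor groups. Single omissions moved folds to -7.06 for FMO2 (still called) without group 1 replicate 1, -4.42 for HPN (still called) without group 1 replicate 3, -5.72 for ACSBG1 (still called) without group 1 replicate 4, -6.46 for GSTA2 and -9.36 for HAO2 (still called) without group 1 replicate 6, -4.97 for MLXIPL (still called) without group 1 replicate 7, and -6.96 for HAO2 and -4.78 for ENPP7 (still called) without group 2 replicate 10.

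Part of the plasma protein and complement genes was called lower in group 1. These proteins are best known from the liver, but the complement regulator CFI and the copper carrier CP are made by many cells. Of 28 genes tested 10 were lower and 0 higher (35.7% and 0%, against 3.03% and 3.91% of all genes), with 18 not called, 3 positive members and a median of -1.65, and in omissions of a single tumor the lower count was 10 to 11 and the median -1.83 to -0.998. Without the 4 tumors that stand apart the lower count was 8. CP, which oxidizes iron for export, had 0.141, 0.581 and 1.01 CPM in group 1 and 1.67, 6.63 and 9.72 CPM in group 2. The groups did not overlap, with group 1 the lower, at -3.29 (adjusted p 0.00396). RBP4, the carrier of retinol, had 0.261, 2.26 and 9.52 CPM in group 1 and 10.9, 50.8 and 327 CPM in group 2. No group 1 tumor reached the lowest group 2 tumor, at -4.77 (adjusted p 0.00911). ITIH4 had 0.667, 4.59 and 9.75 CPM in group 1 and 14.2, 53.7 and 417 CPM in group 2. Group 1 lay wholly below group 2, at -4.81 (adjusted p 0.00642). APOC1 had 3.57, 9.36 and 40.1 CPM in group 1 and 35.5, 134 and 667 CPM in group 2. Group 2 overlapped with group 1, but 11 of its 12 tumors lay above all of group 1, at -4.01 (adjusted p 0.00618). FGG, a fibrinogen chain, lay at or under the floor in all group 1 tumors and had 0.141, 2.94 and 60.9 CPM in group 2. It was at least 74.0-fold lower, a bound that ran from 38.1 without group 2 replicate 3 to 80.6 without group 2 replicate 9, and the lowest group 2 tumor lay at the floor too. The complement genes C7 and CFI, the lipoprotein gene APOB and the lectin LMAN1L were lower by -3.12 for C7 (adjusted p 0.0240), -1.59 for CFI (adjusted p 0.0367), -2.34 for APOB (adjusted p 0.0397) and -6.35 for LMAN1L (adjusted p 0.00658). LMAN1L is counted in this list, though it is neither a plasma protein nor a complement gene. The liver markers themselves were weak, at 0.734, 15.5 and 56.5 CPM summed in group 1 and 3.73, 31.3 and 92.1 CPM in group 2, with APOA1 the most abundant. For each of the 9 genes named here the mean log2 level of NAMs lay above both tumor groups. The omission of single tumors gave -4.63 for APOC1 (still called) without group 1 replicate 3, -7.16 for LMAN1L (still called) without group 1 replicate 6, -5.76 for LMAN1L (still called) without group 2 replicate 10, and -2.48 for C7 (still called) without group 2 replicate 11.

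Some matrix genes were called lower too, and a few went the other way. Fibroblasts and pericytes lay down most of the matrix of a tumor, and its proteins carry growth factors. Of 68 matrix and fibroblast genes 13 were lower and 1 higher (19.1% and 1.47%, against 3.03% and 3.91% of all genes), with 54 not called and a median of -1.56. Group 2 replicate 11, rich in fibroblast markers, weighed on this median, which was -0.65 without it, and without group 1 replicate 7 the lower count was 8. LRRC15, a membrane protein of matrix-forming fibroblasts, had 0, 0.133 and 0.386 CPM in group 1 and 0.251, 20.6 and 314 CPM in group 2. 11 of 12 group 2 tumors lay above every group 1 tumor, at -8.68 (adjusted p 0.00591), and the highest NAM held 3.00 CPM. EFEMP1, a fibulin, had 0.914, 4.47 and 15.5 CPM in group 1 and 8.13, 80.3 and 219.6 CPM in group 2. Above every group 1 tumor lay 11 of 12 group 2 tumors, at -3.90 (adjusted p 0.00567). EDIL3, which binds integrins, had 2.17, 25.4 and 101 CPM in group 1 and 55.5, 386 and 1116 CPM in group 2. The groups shared a range, with 11 of 12 group 2 tumors above every group 1 tumor, at -3.31 (adjusted p 0.0269). TIMP1, an inhibitor of matrix proteases, had 15.2, 40.2 and 70.4 CPM in group 1 and 51.7, 121 and 605 CPM in group 2. In 10 of 12 group 2 tumors the level was above that of every group 1 tumor, at -2.11 (adjusted p 0.0191). The matrix genes CCN3, SPON1, VCAN, LAMC3 and the crosslinking enzyme TGM2 were lower by -3.91 for CCN3 (adjusted p 0.0247), -2.92 for SPON1 (adjusted p 0.0398), -3.34 for VCAN (adjusted p 0.0588), -2.77 for LAMC3 (adjusted p 0.00567) and -2.99 for TGM2 (adjusted p 0.00911). COL25A1 lay at or under the floor in all group 1 tumors and was at least 36.1-fold lower (from 18.3 without group 2 replicate 8 to 39.4 without group 2 replicate 11), with a highest level of 30.3 CPM in group 2. COMP went up instead, with 28.7, 65.5 and 983 CPM in group 1 and 3.66, 21.1 and 36.5 CPM in group 2. Above every group 2 tumor lay 6 of 7 group 1 tumors, at 3.29 (adjusted p 0.00642). The collagens COL22A1 and COL23A1 were higher by 2.96 for COL22A1 (adjusted p 0.0412) and 3.35 for COL23A1 (adjusted p 0.0363). DES, of smooth and striated muscle, had 0.827, 2.50 and 4.99 CPM in group 1 and 5.43, 15.1 and 50.5 CPM in group 2. All tumors of group 1 lay below those of group 2, at -2.81 (adjusted p 0.00911), and the smooth muscle gene CNN1 was lower by -2.95 (adjusted p 0.0493). TNMD, known from tendon, was called at -7.05 (adjusted p 0.0252). Single tumors left out gave 1.89 for COMP (still called) without group 1 replicate 1, 1.92 for COL23A1 (no longer called) without group 1 replicate 2, -8.47 for TNMD (still called) without group 1 replicate 6, 3.60 for COL22A1 (still called) without group 2 replicate 6, and -2.28 for VCAN and -2.04 for CNN1 (still called) without group 2 replicate 11.

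A few genes that respond to stimulation within minutes were called lower in group 1. The AP-1 subunits FOSL1 and FOSL2 and the phosphatase DUSP5 rise with growth factor signals, with hormones and with handling of the tissue, and the time between removal and freezing is not in the labels. Of 29 such genes 5 were lower and 0 higher (17.2% and 0%, against 3.03% and 3.91% of all genes), with 24 not called and a median of -1.22, and 1 was left without the 4 tumors that stand apart. FOSL2 had 10.2, 21.7 and 57.9 CPM in group 1 and 73.7, 233 and 474 CPM in group 2. Every group 1 tumor lay below every group 2 tumor, at -3.23 (adjusted p 0.00549). DUSP5 had 0.653, 1.60 and 4.17 CPM in group 1 and 0.737, 12.5 and 63.9 CPM in group 2. The highest group 1 tumor was passed by 11 of 12 group 2 tumors, at -3.46 (adjusted p 0.0220). ATF3, a stress factor, and FOSL1 were lower by -2.53 for ATF3 (adjusted p 0.0367) and -3.62 for FOSL1 (adjusted p 0.0320). JAK3, a kinase best known from lymphocytes, had 1.00, 3.77 and 8.13 CPM in group 1 and 6.80, 55.7 and 665 CPM in group 2. Group 2 overlapped with group 1, but 11 of its 12 tumors lay above all of group 1, at -5.14 (adjusted p 0.00567), while no T, NK or B cell marker was called and NAMs had 124 to 778 CPM. NWD2 had 0, 0.0442 and 1.39 CPM in group 1 and 0.688, 24.7 and 368 CPM in group 2. 10 of 12 group 2 tumors lay above every group 1 tumor, at -7.93 (adjusted p 0.00820). MCCD1, at or under the floor in group 1, was at least 34.6-fold lower (from 22.6 without group 2 replicate 10 to 37.7 without group 2 replicate 7), and the zinc finger gene ZFP92 was lower by -5.67 (adjusted p 0.0131). A single tumor left out gave -3.16 for ATF3 and -6.33 for ZFP92 (still called) without group 1 replicate 1, -9.56 for NWD2 (still called) without group 1 replicate 6, -6.97 for NWD2 (still called) without group 2 replicate 5, and -4.42 for JAK3 (still called) without group 2 replicate 10.

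Several functions, among them some that set human PPGL groups apart, had no called gene with edgeR from all tumors. At the shares of all genes, 3.91% higher and 3.03% lower, lists of this size would hold few calls. Mutations of SDH genes and of VHL are known to raise hypoxia genes and to change oxidative phosphorylation in human tumors. Of 39 hypoxia genes and 45 oxidative phosphorylation genes 0 were called with edgeR in either direction, with medians of -0.17 and 0.08. At an unadjusted p under 0.05 there were 3 higher and 1 lower hypoxia genes and 2 higher and 1 lower oxidative phosphorylation genes, and DESeq2 called 1 hypoxia gene lower and 1 oxidative phosphorylation gene higher. The lists of V-ATPase (16 genes), Notch (18), T and NK cell (13) and B cell (6) genes had 0 calls with edgeR as well, with medians of 0.06, 0.04, -1.16 and -0.55. In these lists 0, 1, 3 and 1 genes were lower at an unadjusted p under 0.05 and 0, 1, 0 and 1 higher, and DESeq2 called 1 Notch and 1 T cell gene lower. Omissions of a single tumor gave up to 1 lower gene each in the Notch and the T and NK cell list. For oxidative phosphorylation they gave up to 1 higher and up to 1 lower gene. Of 26 genes known for mutations in PPGLs 1, MET, was higher and 0 lower (3.85% and 0%, against 3.91% and 3.03% of all genes), and the higher count was 3 without group 1 replicate 1. Interferon genes had a median of -1.24 with 2 of 28 lower and 0 higher (7.14% and 0%, against 3.03% and 3.91% of all genes). The lower count was 0 to 4 in omissions of a single tumor, with 0 in 8 of them, and without group 2 replicate 9, whose interferon genes were the highest, this median was -0.20.

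The NAMs help to read the direction of these differences, with a limit set by cortical markers. Their cortical score of 8.62 to 10.6 lay above that of every group 1 tumor and above the group 2 median of 6.43. For 264 of the 573 higher genes the mean log2 level of NAMs lay below both tumor groups, for 63 above both, for 104 between them and nearer group 1, and for 142 between them and nearer group 2. For the 445 lower genes it lay above both groups in 264, below both in 47, between them and nearer group 1 in 57 and between them and nearer group 2 in 77. By these levels GINS4 and PLCB4 were higher in group 1 than in the NAMs. NCAM1 and ISL1 were closer to the NAMs in group 1 than in group 2, and CP and KCNK2 were further from them. No test against the NAMs was made. CCN3 was lower in NAMs than in both tumor groups.

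RNA levels along the chromosomes showed where the tumors differ in blocks. DNA copy number was not measured here. Over chromosomes with at least 100 tested genes (CanFam3.1), the median log2 fold change ran from -0.28 on chromosome 32, -0.24 on 15 and -0.22 on 6 to 0.39 on 18, 0.34 on 17 and 0.33 on 35. Chromosome 18 had 50 higher and 8 lower genes among 470 tested (10.6% and 1.70%, against 3.91% and 3.03% of all genes), and 4 of 7 group 1 and 2 of 12 group 2 tumors had a median on it over 0.3 above the median tumor, while 1 of 7 and 5 of 12 had one over 0.3 below it. NRCAM, POLA2 and CHST1, all higher in group 1, lie there, as do KCNQ1 and SEMA3A, which were lower. Tumors of both groups carried such shifts. The number of autosomes whose median lay over 0.3 below that of the median tumor was 2 to 13 with a median of 7 in group 1 and 0 to 13 with a median of 3 in group 2. Above it by over 0.3 lay 0 to 8 autosomes with a median of 3 in group 1 and 0 to 3 with a median of 1 in group 2. The limit of 0.3 was chosen after seeing the data, and no test was made.

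**Figure D4:**
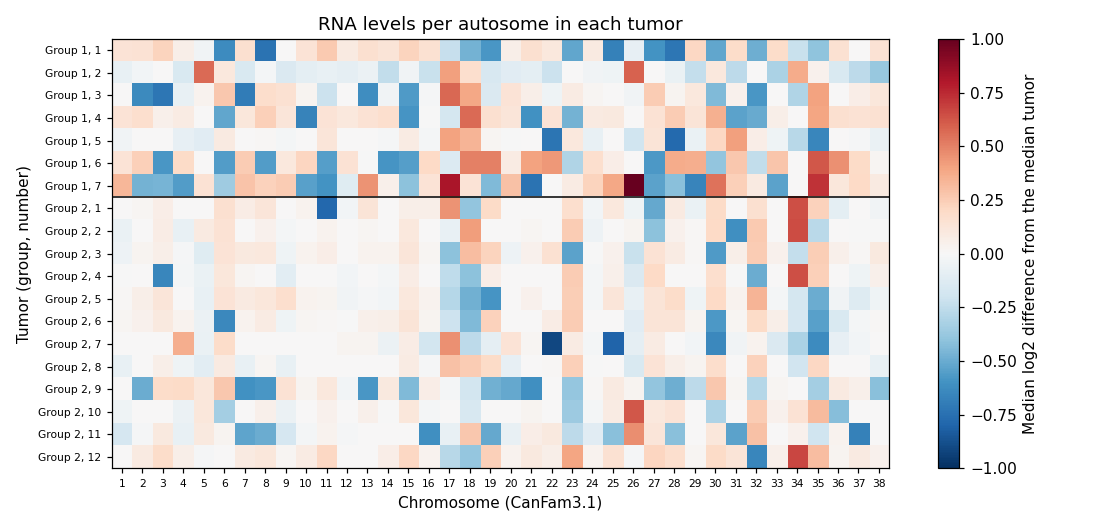
Median log2 difference from the median tumor (color scale, red higher, blue lower) for the genes of each autosome (horizontal axis) in each tumor (vertical axis), with a black line between group 1 and group 2. The number of autosomes over 0.3 below the median tumor reaches 13 in both groups.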

How the data were processed

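The authors deposited a table of raw counts of reads on exons per Ensembl gene for each of the 29 samples, made from stranded mRNA libraries aligned to CanFam3.1 with STAR 2.4.2a. The sources name 2 counting tools, HTSeq and featureCounts, with no version, and whether both strands or multi-mapped reads were counted is not given in them, so paralogs are uncertain. Genes were filtered with edgeR 4.0.16 in R 4.3.3 (filterByExpr, minimum count 10, minimum total 15), scaled by TMM over all 29 samples and tested with the quasi-likelihood F test, 7 tumors against 12, with Benjamini-Hochberg adjustment over all genes tested. The log2 fold changes use a prior count of 0.125. The code was tested on simulated data. Equal replicate numbers do not pair tumors: of 7 pairs 0 correlated over 0.1. Alternatives used DESeq2 1.42.0, an exact Mann-Whitney U-test, other scalings, filters and thresholds, a cortical covariate, a replicate block and omissions of tumors. The members and the 40 gene lists were chosen with earlier results of these data known.

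Genes were named by rule: per direction the 15 called genes with the largest log2 fold change, where the group with the higher level had no tumor under the other group's median and a mean of at least 1 CPM; per direction the 10 genes with the smallest p; called list members and defining markers; and genes the study names for these groups. PTN and the steroid genes were not counted in the first parts. Some genes are not reported here; called list members that were not named are included in the counts. For 3 genes the symbol came from the study's supplement. Promoter motifs were planned but not run, since no promoter sequences of the dog were at hand.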

Additional observations from a re-analysis of the deposited data

Results flagged for a closer look

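In each group of 4 to 10 samples, the highest and the lowest sample were compared with the nearest of the others: the gap, divided by the range of the group, is given in parentheses wherever it lay above Dixon's 95% limit for a group of that size (7 tumors of group 1, 10 NAMs). Group 2, with 12 tumors, is too large for this limit. Chance flags about 1 in 20 groups. Values were log2 CPM of the named genes, list means, totals, cortical scores and correlations.

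In group 1, replicate 7 stood far from the other tumors most often. It was highest for KIF4A (0.658), UHRF1 (0.691), NRCAM (0.653) and ELAVL2 (0.636) and lowest for the antigen presentation list (0.681), the erythroid list (0.623), GABRG3 (0.650), MET (0.599), CHGB (0.681) and SLC18A1 (0.610). Its log2 CPM was 7.62 for UHRF1, against 3.07 in the next tumor, and 4.75 for CHGB, against 12.73. The cell cycle genes UHRF1 and KIF4A and the neuronal gene ELAVL2 are those whose calls ended without this tumor, while NRCAM and MET were called without it. Replicate 2 was highest for PDYN (0.577) and TOX2 (0.570) and lowest for SOAT1 (0.597). Replicate 1 was highest for GFRA3 (0.592) and STAC2 (0.640), and replicate 3 was highest for GLB1L2 (0.575). In all, 14 of 140 genes and 2 of 40 lists were far apart in group 1, and 7 of 140 genes and 4 of 40 lists in NAMs, beside the share that chance gives. The causes were not tested.

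The NAMs entered the scaling and a single alternative fit, but not the main test. Among them replicate 3 was highest for the granin and neuropeptide list (0.636) and lowest for C7 (0.510), SPON1 (0.480) and ZFP92 (0.473). Replicate 4 was lowest for TIMP1 (0.469) and HADH (0.475), replicate 8 was lowest for the neuronal adhesion and synapse list (0.514), replicate 1 was lowest for the hypoxia list (0.513), replicate 2 was lowest for CNN1 (0.492), replicate 5 was lowest for JAK3 (0.541), and replicate 7 was highest for the interferon list (0.502).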

How the results depend on the processing

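The number of calls changed with the choice of method, and the sign of called named genes changed only with the cortical score as a covariate. From all tumors, 573 genes were called higher and 445 lower. With DESeq2 size factors, library size alone, TMM over the tumors only, robust estimation, no filter on low counts or a filter at 1 CPM in 7 tumors, the higher calls numbered 529 to 698 and the lower calls 392 to 526, within 1.5 times. The DESeq2 Wald test gave 916 and 877, of which 547 and 443 were shared with edgeR, and the exact Mann-Whitney U-test 150 and 248, of which 136 and 234 were shared. At an adjusted p below 0.05 there were 249 and 211. With NAMs in the fit, which add samples to the estimate of spread, there were 1345 and 1039. In none of these was a gene called the opposite way. The difference in total counts turned from higher to lower in group 1 when medians replaced means (exact permutation p = 0.497, against 0.490).

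Omission of a single tumor gave 214 to 734 higher and 255 to 481 lower calls. Both lowest counts came without group 1 replicate 7 and both highest without group 1 replicate 1. The higher count also moved by over 1.5 times without group 2 replicate 4, to 359. Without the 4 tumors that stand apart, an omission chosen after seeing the data, 191 and 207 genes were called, 134 and 149 of them shared, with fewer tumors in the test. Counts of 1 to 5 genes in a list often moved by 1 or more in such omissions. Of the 129 named genes that were called, 103 were called in every omission of a single tumor, a share raised by the choice of which list members to name. Without the 4 tumors that stand apart 83 of the 129 were still called. With the exact Mann-Whitney U-test, a form of the test that the study named, 88 were still called. A replicate block, for which the labels give no pairing, left 9 higher and 35 lower calls, with 25 of the 129 named genes still called. It spends a term on each number, and numbers do not pair the tumors.

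The cortical score as a covariate left edgeR with 0 calls in either direction, with 597 genes higher and 1082 lower at an unadjusted p under 0.05. No other tool was run with it. Score and group run together, with an overlap of a pair of tumors, so both cannot be told apart. Of the 573 higher genes 436 had the same sign with it and 137 the opposite, and their median log2 fold change went from 1.502 to 0.55. For 429 lower genes outside the steroid list these were 385 and 44, from -2.34 to -1.60. The median of the mitosis list fell to -0.25 and that of DNA replication to 0.13, while that of plasma proteins and complement was -2.02 and of matrix genes -2.97. Among named genes the sign changed for MYBL2 (-2.27), TOP2A (-0.98), MKI67 (-0.71), KIF4A (-0.51), FOXM1 (-0.35), UHRF1 (-0.0927), PCNA (-0.11), CNTN4 (-0.61), ELAVL2 (-0.15), DPYSL5 (-1.47), DCX (-0.56) and EPHB2 (-0.36), and from lower to higher for TBX3 (0.86), CHRNA4 (0.23), APOB (1.36), GSTA2 (0.0101), FMO2 (0.11), ACSBG1 (0.38), TNMD (1.47), MCCD1 (1.61), ZFP92 (0.33) and ENPP7 (0.98). Other lower genes kept their sign with a much smaller fold. Among them were LMAN1L (-0.0739), HADH (-0.0282), HAO2 (-0.52), FGFR2 (-0.59), ENPP2 (-0.84), JAK3 (-0.98) and KCNK2 (-1.57). Some lower genes kept a larger fold, such as FOSL2 (-3.53), CCN3 (-4.78) and VCAN (-6.08). The cause of these changes was not tested. Chromosome medians moved by less than the spread between tumors under each alternative run for them.

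The limits are those of bulk RNA from tumors of clients' dogs. Groups were drawn from the same libraries, group 1 holds 7 tumors, and clinic, tissue handling, breed and treatment are not in the labels, so their part was not tested. Depth hides genes under about 0.165 CPM. Reads of close paralogs such as GSTA, FMO and hemoglobin genes cannot be told apart with certainty. Promoter motifs were not run, since no promoter sequences of the dog were at hand.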
